A study of Mus musculus with 6 samples.

Results

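The core circadian clock genes were followed in RNA sequencing of the mouse striatum. The 10 genes were Arntl, Clock and Npas2 of the positive limb, Per2, Per3, Nr1d1, Nr1d2 and Dbp of the negative limb and output, and the cryptochromes Cry1 and Cry2. They were chosen by gene symbol, by matching the Ensembl identifiers of the deposited table to GENCODE M21, and not by their values. The choice was made with earlier results of these data known. All 10 were found among the 46078 genes of the table, and all 10 were among the 17605 that were tested, which had a mean of 10 normalized read counts or more. Striatal RNA came from 3 WT mice and 3 Shank3 transgenic (TG) mice, with 1 library for each mouse. All mice were males aged 12 weeks on the C57BL/6J strain, and the TG mice carried an EGFP-Shank3 transgene, whose promoter is not given in the sources used here. The value of a gene was its normalized read count, that is, the number of reads on the gene divided by the size factor of the library. The time of day at which the mice were killed is not given in the sources used here, and WT and TG mice were not labelled by it.

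The circadian clock of mammalian cells is a feedback loop of transcription. ARNTL (also called BMAL1) pairs with CLOCK or with its relative NPAS2, and the pair switches on the Per, Cry, Nr1d and Dbp genes through E-box sequences. PER and CRY proteins then repress the pair, and the REV-ERB receptors made from Nr1d1 and Nr1d2 repress Arntl, Clock and Npas2, so that in tissues with a running clock Arntl and Npas2 peak when Nr1d1, Dbp and Per3 are low, and the reverse. The striatum holds such a clock, in which NPAS2 is abundant, and its phase can be read from these genes only when the hour of sampling is known or when samples cover the day.

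The question asked of the 10 genes was whether WT and TG mice differed in them, and whether their levels in each mouse stood in opposite directions in the positive and the negative limb, as genes of opposite phase do over the day. No gene differed between the genotypes by the test across all genes. By the mean deviation of each limb, the limbs did not stand in opposite directions in any of the 6 mice. Per2 had the widest spread between mice of the same genotype, which came from the WT mice.

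Short promoter stretches are shown first because they hold the letters through which the loop is known to act. Windows from 250 bases before to 50 bases after the start site were available from RefSeq (build GRCm38.p6) for 9 of the 10 genes, with 3 windows for Clock and 2 for Arntl. Per2 had no entry. Both strands of each window were searched for the E-box CACGTG, its variant CACGTT, the D-box letters TTATGTAA, TTATGCAA and TTACGTAA that DBP is known to bind, the core TAGGTCA of the element bound by ROR and REV-ERB receptors, and the CRE letters TGACGTCA. None of these motifs contains another of them. Capitals mark the matches, and AACGTG is the variant read from the opposite strand.
Cry1, chr10:85185089-85185193, minus strand: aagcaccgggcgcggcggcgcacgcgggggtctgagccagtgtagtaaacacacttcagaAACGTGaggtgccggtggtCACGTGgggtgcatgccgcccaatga
Nr1d1, chr11:98775380-98775465, minus strand: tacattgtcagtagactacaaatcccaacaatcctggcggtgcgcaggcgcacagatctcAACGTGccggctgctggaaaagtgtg
Cry2, chr2:92434210-92434295, minus strand: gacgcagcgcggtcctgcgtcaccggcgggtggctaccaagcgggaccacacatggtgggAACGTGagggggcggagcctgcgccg
Per3, chr4:151044796-151044915, minus strand: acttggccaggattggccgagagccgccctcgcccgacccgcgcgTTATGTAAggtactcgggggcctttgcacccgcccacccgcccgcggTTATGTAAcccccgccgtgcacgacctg
Arntl, chr7:113207530-113207559, plus strand: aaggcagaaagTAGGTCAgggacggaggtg

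Counted from the start site, the E-box of Cry1 lies at -60 to -55 and its variant at -79 to -74, the variant of Nr1d1 at -28 to -23 and that of Cry2 at -166 to -161. The D-box letters of Per3 occur at -205 to -198 and again at -158 to -151, and the receptor core of Arntl lies past the start site, at 31 to 37. Of 27025 genes with such windows, 8.09% held the E-box, 5.44% the variant, 2.1% one of the D-box forms, 2.97% the receptor core and 2.03% the CRE. The windows of Clock, Npas2, Nr1d2 and Dbp held none of these letters. A match describes the sequence and is not evidence of binding in these mice.

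As RPKM (reads per kilobase of exon scaled to the library total, from the read counts recovered from the table), Nr1d1 was the most highly expressed of the 10 genes, at 33.3 ± 1.91 (SD, n = 6 mice). Cry2 at 22.0 ± 0.905, Nr1d2 at 20.9 ± 2.1 and Dbp at 19.8 ± 1.89 followed, and their ranges over the mice overlapped. Npas2 came next, at 16.0 ± 0.577, above Clock at 8.60 ± 0.476 with no overlap. NPAS2 can take the place of CLOCK as the partner of ARNTL in forebrain tissue, but RNA levels do not show which partner is used. Per2 at 7.01 ± 1.30, Per3 at 6.38 ± 0.388 and Cry1 at 6.03 ± 0.262 formed a group with overlapping ranges that also reached the range of Clock. Arntl had the lowest mean, 5.25 ± 0.248, and its highest mouse (5.65) lay just below the lowest mouse for Cry1 (5.67). Its range overlapped that of Per2, whose lowest mouse, WT replicate 1 (4.98), was below all values of Arntl. The lengths are those of all annotated exons of a gene together, so the order would move where only some exons are used.

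The libraries held between 27689589 and 36647626 counts on genes. Each member was counted from at least 524 reads in each library, and the counting error of the member values was at most 0.06 on the log2 scale (Cry1). Shank3 itself was 28081 ± 1934 normalized read counts in the TG group and 13530 ± 531 in the WT group, giving a log2 fold change of 1.05 ± 0.06 (SE), and it was the 1 gene of the 17605 tested that passed the limma test at a Benjamini-Hochberg adjusted p of 0.05. All 12 markers of striatal spiny projection neurons were detected in all libraries, led by Pde10a (31505 to 45595) and Adcy5 (32420 to 44033). TG replicate 1 stood apart in the markers of the choroid plexus, with a summed value of 28962 for the 12 genes against 8068 to 9505 in the other 5 libraries and with 13701 normalized read counts of Ttr against 120 to 1122. Where they differ without that library, counts of clock genes under an unadjusted limma p of 0.05 or separated between the genotypes are given both ways. In whole tissue, fewer cells of a type and less RNA per cell cannot be told apart.

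Of the positive limb, Arntl (ENSMUSG00000055116, chr7:113207465-113314126, GRCm38), which encodes the subunit common to both activator pairs, had normalized read counts of 1183, 1248 and 1339 in TG replicates 1, 2 and 3 and of 1230, 1185 and 1278 in WT replicates 1, 2 and 3. The lowest and the highest of the 6 values were both from TG mice, and the WT values lay between them. The mean was 1257 ± 78.2 in the TG group and 1231 ± 46.7 in the WT group (SD, n = 3), giving a log2 fold change of 0.03 with a 95% confidence interval from -0.11 to 0.16 (limma, adjusted p = 0.985).

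Clock (ENSMUSG00000029238, chr5:76209868-76304792), which encodes a partner of ARNTL with histone acetyltransferase activity, had 3652, 4008 and 3820 in the TG group and 3428, 3662 and 3718 in the WT group. TG replicates 2 and 3 were above all WT mice, while TG replicate 1 fell inside the WT range. The difference was 0.09 on the log2 scale, with an interval from -0.03 to 0.20 (limma, adjusted p = 0.971).

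Npas2 (ENSMUSG00000026077, chr1:39193731-39363236), the alternative partner of ARNTL, had 2513, 2402 and 2274 in the TG group and 2398, 2485 and 2391 in the WT group. Its spread between mice of the same genotype was the smallest of the 10 genes, although over all 6 mice Cry2 had a slightly narrower range. The highest value of Npas2 was in TG replicate 1 and the lowest in TG replicate 3, and the WT mice lay inside that range. Its log2 fold change was -0.02, with an interval from -0.13 to 0.10 (limma, adjusted p = 0.988).

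Of the period genes, whose proteins enter the nucleus with the cryptochromes to repress the loop, Per2 (ENSMUSG00000055866, chr1:91415982-91459324) had 1170, 1339 and 1442 normalized read counts in the TG group and 925, 1252 and 1617 in the WT group. The lowest and the highest mouse were both WT, and all TG mice lay between them. The highest mouse was 1.75 times the lowest, against 1.10 to 1.26 times for the other 9 genes. The means were 1317 ± 137 in the TG group and 1265 ± 346 in the WT group, giving a log2 fold change of 0.09 with an interval from -0.27 to 0.45 (limma, adjusted p = 0.983). The direction of this value rested on WT replicate 1, since without that mouse it was -0.12. As a percent change the interval ran from -16.9% to 36.3%, so that differences of that size could not be detected with these mice.

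Per3 (ENSMUSG00000028957, chr4:151003652-151044665), whose window held the repeated D-box letters shown above, had 1767, 2050 and 1905 in the TG group and 1841, 1958 and 2049 in the WT group. The groups covered nearly the same range. Its log2 fold change was -0.03, with an interval from -0.18 to 0.11 (limma, adjusted p = 0.983).

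Nr1d1 (ENSMUSG00000020889, chr11:98767932-98775333), which encodes the heme receptor and repressor REV-ERB alpha, had 3007, 3405 and 3344 in the TG group and 3274, 2970 and 3333 in the WT group. TG replicate 1 and WT replicate 2 were the low mice, and the other 4 lay close together. The log2 fold change was 0.03, with an interval from -0.11 to 0.17 (limma, adjusted p = 0.986). Of the exon bases of Nr1d1, 8.55% also belong to exons of Thra on the opposite strand, and the library kit does not mark strand, so reads there cannot be told apart. Thra had 15540 to 17634 normalized read counts.

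Nr1d2 (ENSMUSG00000021775, chr14:18204054-18239127), which encodes REV-ERB beta, had 3168, 3922 and 3954 in the TG group and 3215, 3366 and 3707 in the WT group. TG replicates 2 and 3 were the highest of the 6 mice and TG replicate 1 was the lowest. The means were 3681 ± 445 in the TG group and 3429 ± 252 in the WT group, giving a log2 fold change of 0.10 with an interval from -0.09 to 0.29 (limma, adjusted p = 0.971).

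Dbp (ENSMUSG00000059824, chr7:45705088-45710203), an output transcription factor of the PAR bZIP family that is driven directly by the ARNTL pair, had 1623, 2052 and 1696 in the TG group and 1875, 1887 and 2048 in the WT group. TG replicates 1 and 3 were below all WT mice, while TG replicate 2 was the highest of the 6. The means were 1791 ± 230 in the TG group and 1937 ± 96.6 in the WT group, giving a log2 fold change of -0.12 with an interval from -0.30 to 0.06 (limma, adjusted p = 0.971). With 1 mouse left out the value lay between -0.22 and -0.053, the latter without TG replicate 1. Dbp shares 18.0% of its exon bases with Sphk2 on the opposite strand, which had 629 to 853 normalized read counts and its lowest value in TG replicate 2.

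Among the cryptochromes, the blue-light receptor relatives that carry the repression, Cry1 (ENSMUSG00000020038, chr10:85131700-85185064) had 615, 619 and 655 normalized read counts in the TG group and 600, 669 and 645 in the WT group. Cry2 (ENSMUSG00000068742, chr2:92403646-92434043) had 4235, 4552 and 4460 in the TG group and 4154, 4300 and 4553 in the WT group. For both genes the lowest mouse was WT replicate 1, and the ranges of the genotypes overlapped over most of their length. The log2 fold changes were -0.02 for Cry1, with an interval from -0.17 to 0.13, and 0.03 for Cry2, with an interval from -0.09 to 0.14 (limma, adjusted p = 0.991 and 0.983). Cry2 shares 4.67% of its exon bases with the opposite-strand transcript D930015M05Rik, which had 61.7 to 97.4 normalized read counts.

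**Figure D1:**
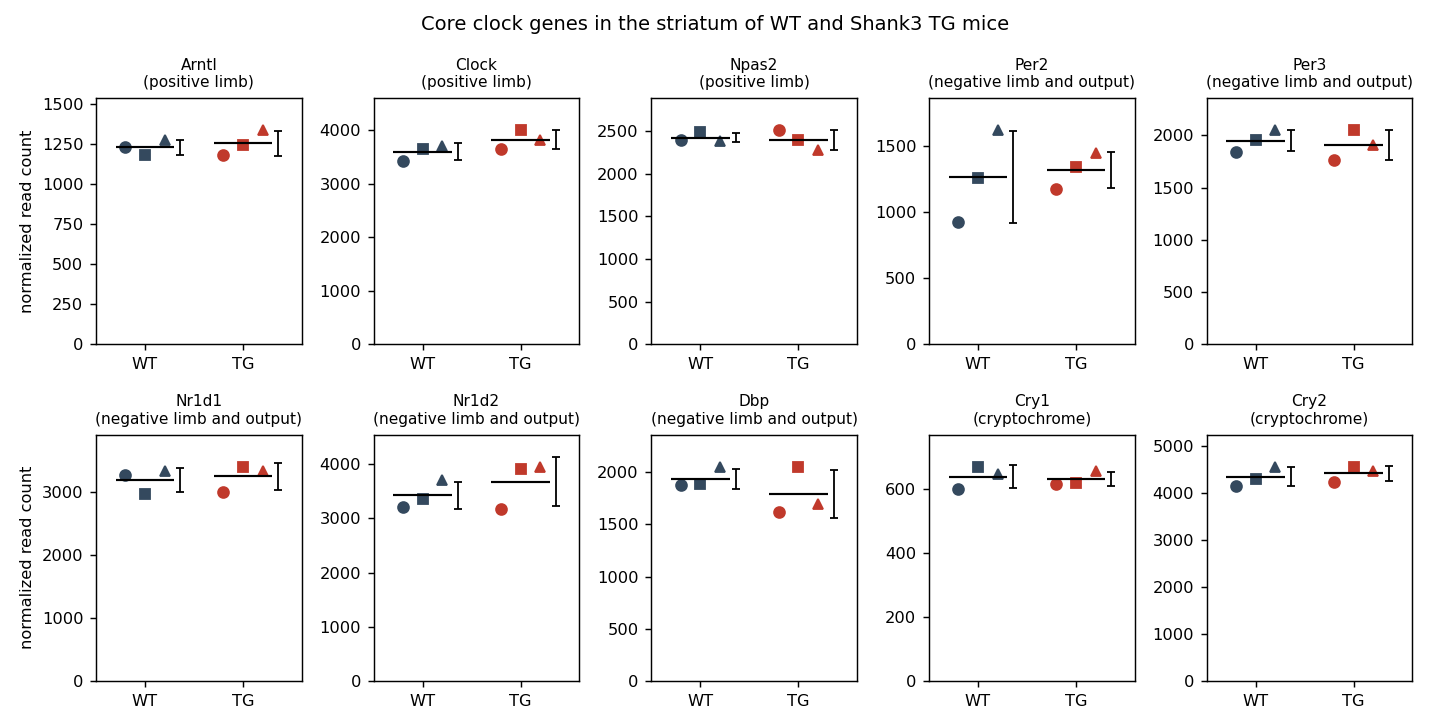
Normalized read counts of the 10 clock genes in WT and TG mice, with a vertical axis from 0 for each gene. A point is 1 mouse (circle, square and triangle for replicates 1, 2 and 3), the line is the mean and the bar is the SD of 3 mice. The WT and TG values overlap for all 10 genes, and the widest spread is that of Per2 in WT mice, from 925 to 1617.

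Counted together, 0 of the 10 genes passed the limma test at an adjusted p of 0.05, where 0.00568% of all genes tested did, and DESeq2 and edgeR on the recovered read counts also called 0 of 10. At an unadjusted p of 0.05, 0 of 10 passed, against 4.31% of all genes. The values of the genotypes overlapped for all 10 genes, so 0 of 10 were separated, against 10.1% of all genes. The means were higher in TG mice for 6 of the 10 genes (Arntl, Clock, Per2, Nr1d1, Nr1d2 and Cry2), against 49.2% of all genes, and the median log2 fold change was 0.03. The exact permutation p-values, two-sided, lay between 0.3 (Clock) and 0.9 (Npas2 and Cry1), and 0.1 is the smallest that 3 against 3 mice allow. The intervals bound what the mice could show. Apart from Per2 and Nr1d2, no gene had an interval reaching a rise above 15.1% (Clock), and the lowest bound among all 10 was -18.8% (Dbp).

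Without TG replicate 1, the TG values of 3 of the 10 genes, Clock, Nr1d1 and Nr1d2, lay above all WT values, against 25.6% of all genes that were separated in either direction with 2 against 3 mice. The log2 fold change was then 0.12 for Clock (limma, unadjusted p = 0.0482) and 0.20 for Nr1d2 (limma, unadjusted p = 0.00780), each with an adjusted p of 0.658. These were 2 of the 10 genes at an unadjusted p of 0.05, against 7.54% of all genes. Clock and Nr1d2 belong to opposite limbs of the loop. Per2 was at 0.17 and Dbp at -0.053 without that mouse, and Per3 turned from -0.03 to 0.02.

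**Figure D2:**
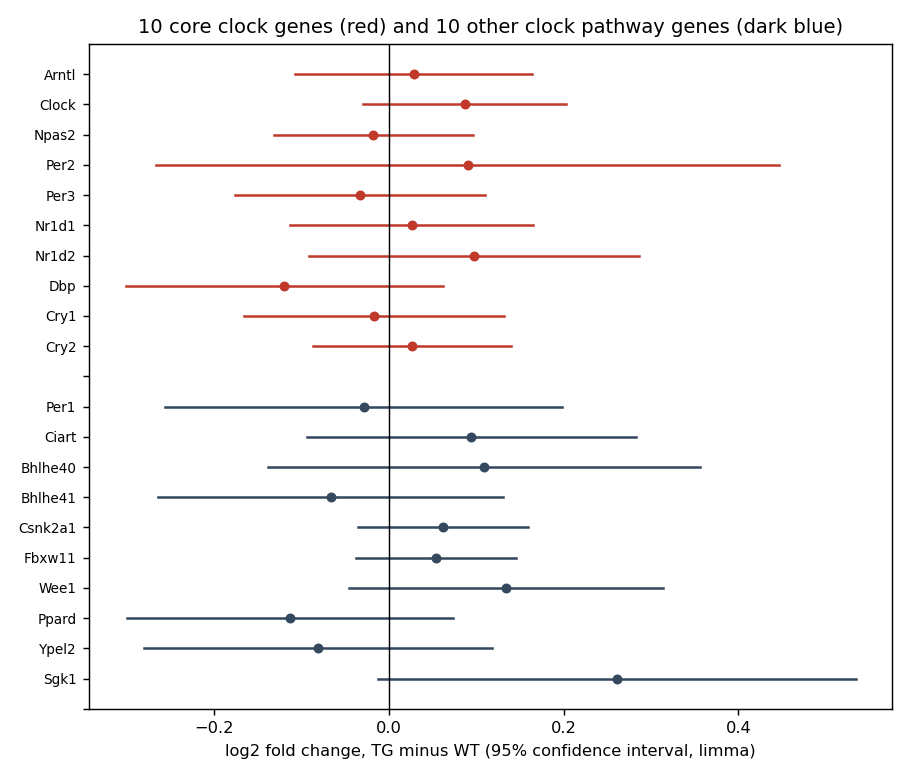
Log2 fold change of TG against WT mice on the horizontal axis, with the limma 95% confidence interval, for the 10 core clock genes (red, top) and 10 other genes of the clock pathway that the text names (dark blue). All intervals cross 0, and among the 10 genes that of Per2 is the widest, from -0.27 to 0.45.

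The limbs were then compared within each mouse. For each gene, the deviation of a mouse from the mean of the 6 mice was taken on the log2 scale, and deviations were averaged over Arntl, Clock and Npas2 and over Per2, Per3, Nr1d1, Nr1d2 and Dbp. In TG replicate 1 both limbs were low, the positive limb at -0.01 and the negative limb at -0.14. TG replicate 2 had 0.04 and 0.11, and TG replicate 3 had 0.02 and 0.05. WT replicate 1 had -0.05 and -0.12, WT replicate 2 had -0.01 and -0.03, and WT replicate 3 had 0.01 and 0.14. The limbs thus had the same sign in all 6 mice, with 0 of 6 opposite, and the positive limb moved less than the negative limb in each. Several of the positive limb values were close to 0. In that mean Arntl and Npas2 offset each other in each mouse except WT replicate 1, as in TG replicate 1 (-0.07 and 0.06) and TG replicate 3 (0.11 and -0.08). The small size and the sign of the positive limb mean therefore do not describe its genes singly. When each mouse was set against the mean of its own genotype, WT replicate 2 had limbs of opposite sign, at 0.00197 and -0.03.

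The difference of the negative minus the positive limb was -0.13, 0.07 and 0.03 in the TG group and -0.08, -0.02 and 0.13 in the WT group. Both genotypes thus had a mouse below 0 and a mouse above it. The means were -0.01 ± 0.10 in the TG group and 0.01 ± 0.11 in the WT group, and the genotypes therefore differed by -0.02, less than the spread between mice of the same genotype. The ratio of Nr1d1 to Arntl, the repressor to its target, was between 1.32 and 1.45 on the log2 scale in all 6 mice. The ratio of Dbp to Arntl was 0.46, 0.72 and 0.34 in the TG group and 0.61, 0.67 and 0.68 in the WT group. WT mice were thus close together in this ratio, at 0.65 ± 0.04, and TG mice stood on both sides of them, at 0.50 ± 0.19.

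The mice also differed in the level of the set. WT replicate 3 was above the mean of the 6 mice for 9 of the 10 genes, TG replicate 2 for 8 and TG replicate 3 for 7. WT replicate 2 was above it for 4 genes, WT replicate 1 for 2 and TG replicate 1 for 1, which was Npas2. TG replicate 1 and WT replicate 1 each had the lowest value of the 6 mice for 4 of the 10 genes. These low mice had different genotypes, and so had the mice at the high end.

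**Figure D3:**
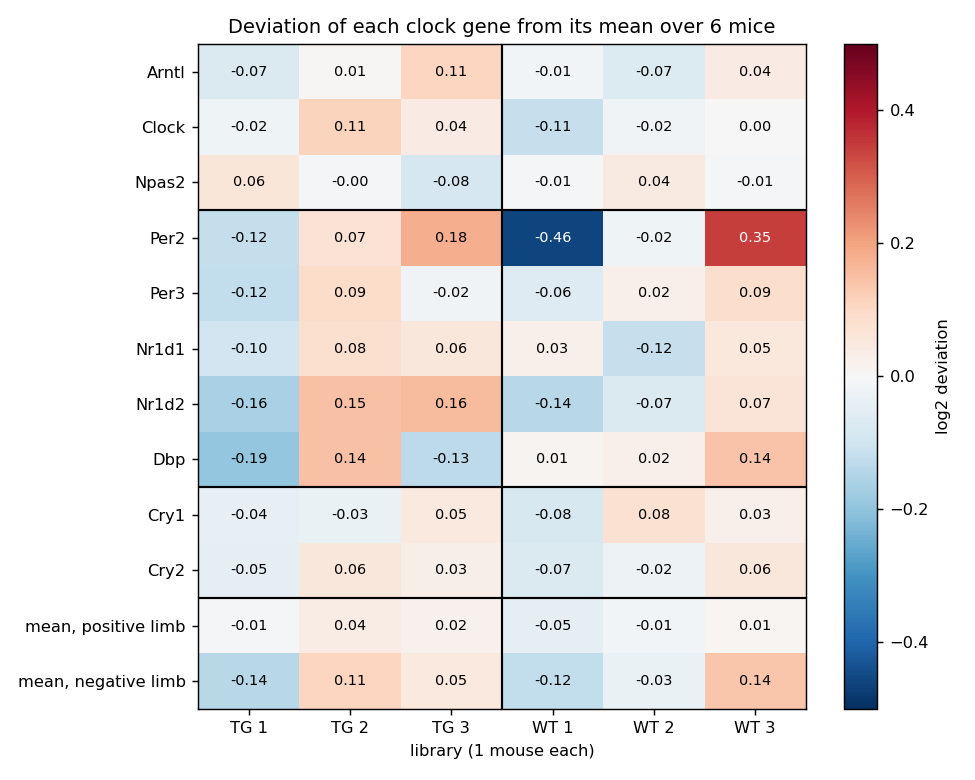
Deviation of each gene (rows) in each library (columns, 1 mouse each) from the mean of the 6 mice, on the log2 scale, in blue for low and red for high, with the mean of the positive and the negative limb in the lowest rows. TG replicate 1 and WT replicate 1 are low in most rows, and the extreme cells are those of Per2 in WT replicates 1 and 3.

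Because REV-ERB proteins repress Arntl, the other 9 genes were set against Arntl over the 6 mice, by Pearson's r with an exact test over the 720 orders of the mice, and p-values were adjusted by Benjamini-Hochberg over the 17604 other genes tested. The r was below 0 for 1 of the 9 genes, against 49.0% of all genes, and the exact p was under 0.05 for 1 of 9, against 6.19% of all genes. No gene passed after adjustment. Nr1d1 and Nr1d2, the repressors of Arntl, had an r of 0.80 each (exact p = 0.0708 and 0.0583, Spearman's rho = 0.77 and 0.89 with exact p = 0.103 and 0.0333, adjusted p of r = 0.800 and 0.786). Without TG replicates 1 and 3, the mice farthest from the median of Arntl, the r was 0.88 for Nr1d1 and 0.59 for Nr1d2. The r of Arntl with both of its repressors was thus above 0, without passing the test.

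Npas2 was the gene that ran against Arntl. Its r with Arntl was -0.97 (exact p = 0.00417, adjusted p = 0.776) and its rho was -0.94 (exact p = 0.0167). The r was -0.97 also after the mean of each genotype had been removed (exact p = 0.0278), and -0.90 without TG replicates 1 and 3. It ranked 14 from the lowest of the 17604 genes. The range of Npas2 was narrow, its highest mouse being 1.11 times its lowest, and that of Arntl was 1.13 times. In the known loop the genes are repressed by the same receptors and peak together. Of the 15 pairs of a positive with a negative limb gene, 5 had an r below 0, and all 5 were pairs of Npas2 (-0.78 to -0.06). Arntl (0.09 to 0.80) and Clock (0.26 to 0.83) had an r above 0 with all 5 negative limb genes. Among the 10 pairs within the negative limb, r was below 0 for 0 pairs and its median was 0.59. The pairs share libraries and are given as a description.

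The genes most like Arntl over the 6 mice, among genes averaging 100 normalized read counts or more, were Susd1 (r = 0.998), D930016D06Rik, Snrnp40, Usp30 and Taf1b (r = 0.98 for the last), and the least alike were Sox1 (r = -0.98), S100a1, Pttg1, Gja1 and Dlx2. The core clock genes were left out of this ranking, and no other gene of the clock pathway was among those named. The named genes had an adjusted p of 0.776 in each case, and 1090 genes, the 6.19% above, had an exact p under 0.05.

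Dbp was set against the other genes in the same way. Its r with Arntl was 0.09 (exact p = 0.850, adjusted p = 0.983, rho = 0.31 with exact p = 0.564) and was 0.78 without TG replicates 1 and 3. With Per3 it had an r of 0.87 (exact p = 0.0236, adjusted p = 0.556) and a rho of 0.94 (exact p = 0.0167), and an r of 0.89 without the same 2 mice. The genes most like Dbp were Ebf1 (r = 0.997), a transcription factor of the direct-pathway spiny neurons, Gpr6, a receptor of the indirect-pathway spiny neurons, Arhgap18, Ppp1r1b, which encodes the spiny neuron phosphoprotein DARPP-32, and Necab2. Ppp1r1b had 21063, 27626 and 22820 normalized read counts in the TG group and 24935, 25065 and 28763 in the WT group, in nearly the order of Dbp. The least alike were Prnp (r = -0.996), Vsnl1, Ceacam1, Tmem59l and Gpr26. None passed after adjustment over all genes, the smallest adjusted p being 0.437. Over all genes, 7.78% had an exact p under 0.05 with Dbp, against 1 of the 9 other core genes, Per3.

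The 12 markers of spiny neurons were set beside Dbp as a list. Of these, 10 had a lower mean in TG mice, where 49.2% of all genes had a higher one, and the median log2 fold change was -0.125. None passed the limma test, and 0 of 12 were separated between the genotypes, against 10.1% of all genes. Their median deviation from the mean of the 6 mice was -0.28, 0.19 and -0.07 on the log2 scale in the TG group and -0.02, 0.00125 and 0.19 in the WT group. Dbp deviated by -0.19, 0.14 and -0.13 in the TG group and 0.01, 0.02 and 0.14 in the WT group. In both, TG replicates 1 and 3 were the lowest and TG replicate 2 and WT replicate 3 the highest. The 12 markers summed to 170747 in TG replicate 1 and to between 197965 and 236233 in the other 5 mice, and no defining marker was at 0. The 9 markers of cortical excitatory neurons, led by Slc17a7 (20237 to 29848) and Tbr1 (2438 to 3425), were lowest in TG replicate 2, with a sum of 28411, against 33050.4 to 40302 in the others. The part of these cell markers in the values of Dbp and Per3 was not tested.

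**Figure D4:**
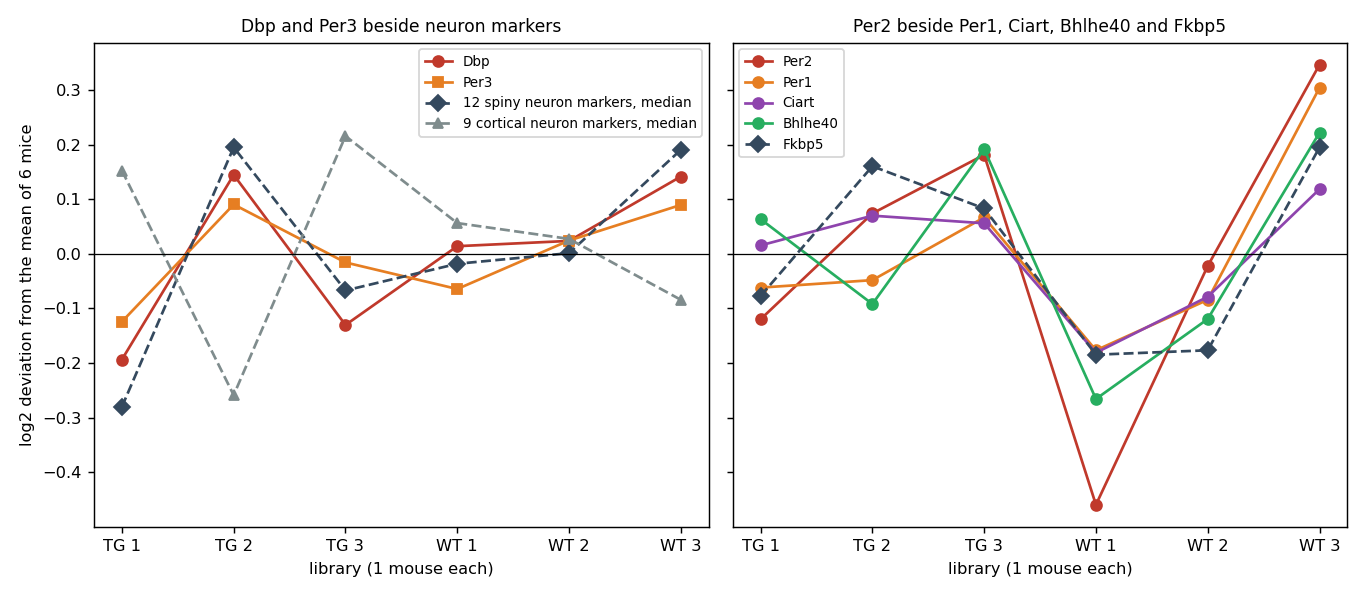
Log2 deviation from the mean of 6 mice, by library (1 mouse each, joined by lines only to guide the eye). On the left, Dbp and Per3 with the median of 12 spiny neuron and 9 cortical neuron markers, where Dbp and the spiny neuron markers are lowest in TG replicate 1. On the right, Per2 with Per1, Ciart, Bhlhe40 and Fkbp5, all of them highest in WT replicate 3 and lowest in WT replicate 1 except that Fkbp5 is nearly as low in WT replicate 2.

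Pooled over the genotypes, the spread between mice of the same genotype was largest for Per2. On the log2 scale it was 0.30, larger than in 99.5% of the 5000 genes whose mean was within 2-fold of it and larger than in 86.7% of all genes tested. This spread came from the WT mice, in which the highest was 1.75 times the lowest. Among the TG mice the ratio was 1.23 for Per2, below that of Dbp (1.26) and Nr1d2 (1.25). The counting error of Per2, from 808 to 1647 reads, was at most 0.05. Nr1d2 (0.15, 94.8% of genes of similar level) and Dbp (0.14, 91.0%) came next. Nr1d1 and Per3 had 0.09 each (77.9% and 74.5%). Arntl (0.07), Clock (0.06), Cry1 (0.07), Cry2 (0.06) and Npas2 (0.06) lay between the 30.7% and 53.0% marks of genes of their level. The 5 genes of the negative limb thus had the largest spreads of the 10. The median of the 10 genes was 0.08, against 0.11 for all genes tested and 0.08 for those averaging 100 or more.

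**Figure D5:**
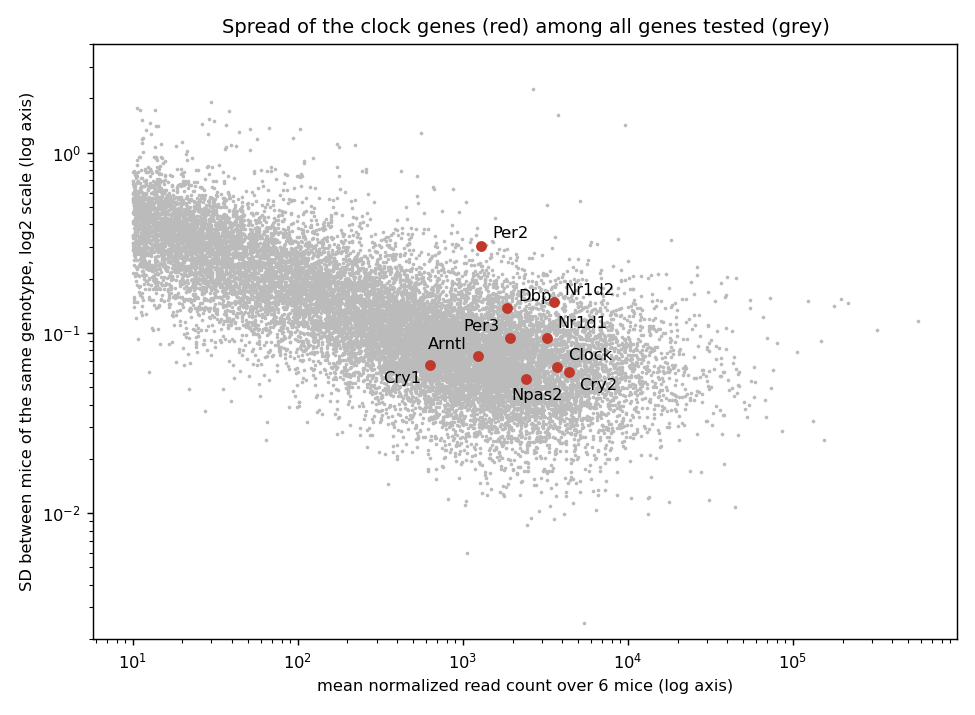
Mean normalized read count over 6 mice (horizontal, log axis) and SD between mice of the same genotype on the log2 scale (vertical, log axis), for the 10 clock genes (red) among all genes tested (grey). Per2, at 0.30, lies above nearly all genes of its level, and Npas2, at 0.06, is the lowest of the 10.

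Per2 is also known as a gene induced within hours by glucocorticoids and by neuronal activity, as is Per1. After the spread of Per2 had been seen, its correlations over the 6 mice were added. Among the clock genes, the highest r were those of Ciart (r = 0.91, exact p = 0.0125, rho = 0.89 with exact p = 0.0333), Cry2 (r = 0.90, exact p = 0.00972, rho = 0.94 with exact p = 0.0167) and Per1 (r = 0.88, exact p = 0.0250, rho = 0.94 with exact p = 0.0167), with Bhlhe40 behind them (r = 0.84, exact p = 0.0306, rho = 0.83 with exact p = 0.0583). All of these encode repressors of the ARNTL pair, but the repressor genes Per3 and Cry1 had a lower r (0.66 each, exact p = 0.140 and 0.150). Of the positive limb, Clock had an r of 0.70 with Per2, Arntl 0.54 and Npas2 -0.35. Usp2, encoding a ubiquitin protease that acts on clock proteins, ran the other way (r = -0.93, exact p = 0.00972, rho = -0.94 with exact p = 0.0167), with an r of -0.89 when WT replicates 1 and 3 were left out. Without WT replicates 1 and 3, the mice farthest from the median of Per2, r was 0.82 for Cry2 and Per1 but 0.52 for Ciart and 0.39 for Bhlhe40, so the relation of these last rested on those mice. Over all genes, 6.54% had an exact p under 0.05 with Per2, against 1 of the 9 other core genes, Cry2. Counted from the highest r, Ciart ranked 170 of 17604 genes, Cry2 224, Per1 318 and Bhlhe40 510. Usp2 ranked 71 from the lowest. No gene passed after adjustment over all genes (smallest adjusted p 0.562).

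Per1 had 4901, 4948 and 5358 normalized read counts in the TG group and 4526, 4826 and 6316 in the WT group, with the same order of WT mice as Per2. Ciart, encoding the repressor CHRONO, had 476, 495 and 490 in the TG group and 415, 446 and 511 in the WT group. Bhlhe40, encoding the repressor DEC1, had 2089, 1876 and 2283 in the TG group and 1663, 1841 and 2332 in the WT group. In all of these genes, as in Per2, WT replicate 1 was the lowest of the 6 mice and WT replicate 3 the highest. Fkbp5, a chaperone of the glucocorticoid receptor and a standard target of it, had 1176, 1387 and 1315 in the TG group and 1092, 1098 and 1421 in the WT group, and it too was lowest in WT replicate 1 and highest in WT replicate 3. The 9 glucocorticoid-induced genes, led by Tsc22d3 (1841 to 2346) and Fkbp5, had a higher mean in TG mice for 8 of 9, against 49.2% of all genes, and summed to 7644, 7518 and 7454 in the TG group and 6308, 6974 and 7134 in the WT group. Tsc22d3 did not have the order of Per2, since all TG mice (2316 to 2346) were above all WT mice (1841 to 2083), with a log2 fold change of 0.22 (limma, adjusted p = 0.971). The 10 immediate early genes, led by Egr1 (11496 to 16433) and Arc (8433 to 12561), summed to 43023, 33887 and 37069 in the TG group and 34466, 35074 and 44679 in the WT group. The sum was highest in WT replicate 3, with TG replicate 1 close to it, and lowest in TG replicate 2. The median log2 deviation of the 10 genes was instead highest in TG replicate 1, at 0.21, against 0.16 in WT replicate 3. It was lowest in TG replicate 2, at -0.18, so the list did not have the order of Per2. The part of glucocorticoid-induced and activity-induced transcription in the values of Per2 was not tested.

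The rest of the pathway was measured with 35 further genes in 4 groups. Of these, 18 had a higher mean in TG mice and 17 a lower one, and the median log2 fold change was 0.01. At an adjusted p of 0.05, 0 of 35 passed by limma, DESeq2 or edgeR, and 0 of 35 passed at an unadjusted p of 0.05. The 9 repressors and output factors, with Per1, Ciart, Bhlhe40 and Bhlhe41 among them, had 4 higher and 5 lower. The group of 7 nuclear receptors, corepressors and related factors had 3 higher and 4 lower. The group of 10 kinases and ubiquitin ligases, which also held the ubiquitin protease gene Usp2, had 5 of each. The 9 clock-controlled genes had 6 higher and 3 lower.

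By the smallest limma p, the named genes among these were Sgk1, Wee1 and Csnk2a1 on the higher side and Ppard and Ypel2 on the lower. Sgk1, a kinase gene that is induced by glucocorticoids as well as under clock control, had 4626, 5687 and 4894 normalized read counts in the TG group and 3345, 4719 and 4737 in the WT group. WT replicate 1 was the low mouse here as well, and the log2 fold change was 0.26 with an interval from -0.01 to 0.53 (limma, adjusted p = 0.971). Wee1, a cell cycle kinase gene with E-boxes in its promoter, had a log2 fold change of 0.13, and Csnk2a1, encoding a subunit of casein kinase 2, of 0.06. Ppard had -0.11 and Ypel2 -0.08, and the adjusted p was 0.971 for all of these. The genotypes did not overlap for 2 of the 35 genes, Csnk2a1 and Fbxw11 (log2 fold change 0.05), which encodes a ubiquitin ligase subunit acting on PER proteins, against 10.1% of all genes. Both were higher in TG mice, with an exact permutation p of 0.1, the smallest this design allows. Without TG replicate 1, 8 of the 35 genes lay above all WT mice and 3 below, against 25.6% of all genes separated, and 4 had an unadjusted limma p under 0.05, against 7.54% of all genes.

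Markers of further cell types were measured in the same libraries. Of the 8 markers of microglia, led by Csf1r (3524 to 4281) and Cx3cr1 (1697 to 1951), 8 had a lower mean in TG mice, where 49.2% of all genes had a higher one, and 4 did not overlap between the genotypes, against 10.1% of all genes, with summed values of 10482 to 11179 in TG mice and 11308 to 11915 in WT mice. Markers of astrocytes, led by Slc1a2 (83230 to 88065) and Aldoc (18863 to 20938), had 3 of 8 higher and 5 lower. Oligodendrocyte markers, led by Mbp (99650 to 119519), had 3 of 8 higher and 5 lower, and endothelial markers, led by Flt1 (2604 to 3017) and Cldn5 (800 to 1162), had 2 of 8 higher and 6 lower. None of these markers was at 0 in any library, and none passed the limma test after adjustment. Their part in the clock gene values was not tested.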

How the data were processed

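The authors trimmed paired-end reads of TruSeq RNA v2 libraries (Trimmomatic 0.35), aligned them to GRCm38 (TopHat2 2.1.0), counted them per gene (HTSeq) and divided the counts by DESeq2 size factors. The deposited unit is thus a normalized signal per gene. The strand setting and annotation release are not given in the sources used here. Read counts were recovered by dividing by the smallest value above 0 in each library, and 100% of values were whole within 0.01. The main test was limma 3.58.1 (R 4.3.3) on log2(value + 1), with the trend option, for genes averaging 10 or more, and p-values were adjusted by Benjamini-Hochberg with a threshold of 0.05. Fold changes on this scale understate changes of low genes. The fits were tested on simulated data. Alternatives were DESeq2 1.42.0 and edgeR 4.0.16 (quasi-likelihood) on recovered counts, TMM scaling, library totals, pseudocounts of 0.5 and 5, no filter, a minimum mean of 50, an adjusted p of 0.1, each mouse left out, and a replicate block.

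The members and lists were chosen with earlier results of these data known. Genes named were the 10 members, Shank3, other clock genes called and the 3 with the smallest p in each direction. Also named were the 5 non-members most and the 5 least like Arntl and Dbp, genes overlapping exons of members, and the 2 most abundant of each marker list. Per1, Ciart, Bhlhe40, Bhlhe41, Fbxw11 and Usp2 were named after their values were seen. The opposite-strand transcript Gm45355, which overlaps 0.439% of the exon bases of Arntl, was not analysed here. The limma p-values set the difference of the genotypes against the spread between these mice, moderated over all genes tested. The exact p-values come from regrouping or reordering the same mice. Some genes that this rule names are not reported here.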

Additional observations from a re-analysis of the deposited data

How the results depend on the processing

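No clock gene passed in any of the 17 alternatives, including DESeq2, edgeR, TMM scaling, library totals and the replicate block (0 of 10 genes). Of 160 alternative fold changes of the 10 genes, 150 kept their sign. The 10 that turned all left out 1 mouse, and the smallest adjusted p was 0.609. With 1 mouse left out, the log2 fold change ranged from -0.018 to 0.071 for Arntl, -0.053 to 0.019 for Npas2, -0.12 to 0.29 for Per2, -0.086 to 0.021 for Per3, -0.025 to 0.082 for Nr1d1, -0.061 to 0.018 for Cry1 and -0.0037 to 0.062 for Cry2, and from -0.12 to 0.12 for Per1, -0.14 to 0.035 for Bhlhe41 and -0.15 to 0.016 for Ypel2. Against the mean of the own genotype, 1 of 6 mice had limbs of opposite sign, in place of 0. Without TG replicate 1, an alternative chosen after seeing the data, 3 of 10 genes did not overlap between genotypes, in place of 0. The r of Cry1 with Arntl, 0.24, was -0.36 without TG replicates 1 and 3. The cause of these changes was not tested, beyond the smaller number of mice. Same-numbered mice were not paired by the labels, and their deviations correlated by 0.0474, 0.0163 and 0.0928, so the block carries no pairing. The limits are the 3 mice per genotype, the unknown hour of sampling, a kit without strand, and whole tissue.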
